A study of Mus musculus with 4 samples.

Results

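The cells described here are cycling thymocytes with CD4 or CD8 coreceptor transcripts and high levels of the mitosis genes Top2a, Nusap1, Prc1, Spc25 and Cdca3, and they are called Top2a-high DP blasts. They were chosen by raw counts of unique molecular identifiers (UMIs, the tags that let each captured transcript be counted once): at least 3 UMIs of Cd4, Cd8a and Cd8b1 together, at least 6 of the 5 mitosis genes, under 4 of the early thymocyte genes Il2ra, Dtx1, Hes1, Erg, Mpzl2 and Notch3, and none of Nkg7 or of C1qa, C1qb and C1qc. Of 57354 deposited cells, 18392 passed the quality limits of at least 200 genes, at least 3000 UMIs and at most 10% mitochondrial UMIs, 12086 of these passed the coreceptor and exclusion limits (DP-gated cells), and 2916 also passed the mitosis gene limit. Control 1 held 491 of them, control 2 held 619, cKO 1 held 739 and cKO 2 held 1067.

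The 4 libraries were made from thymocytes of mice between 6 and 8 weeks of age on the C57BL/6 background, 2 from each genotype, with 10x Genomics droplets and 3′ chemistry. Both groups carry 2 Tox4 alleles with loxP sites around exons 4 to 6 (Tox4 F/F, control), and the cKO mice also carry Lck-Cre (Tox4 F/F;Lck-Cre), a recombinase driven by the proximal Lck promoter and active in T cells from the DN3 stage, so that other thymic cells keep the gene and the controls have no Cre. Each library is 1 sample, and p-values measure the spread between these libraries. Tox4 itself could not check the labels. Its 3′ end, where this chemistry reads, lies in exon 10 (chr14:52293201-52296401, GRCm38), outside the floxed exons (52285660 to 52287531), and its level in Top2a-high DP blasts was 44.1 and 51.4 CPM (counts of the gene scaled to a library total of 1e6) in the controls and 40.7 and 44.3 CPM in the cKO libraries.

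Thymocytes that have rearranged a T cell receptor β chain receive a pre-TCR signal, express CD4 and CD8 (double positive, DP) and divide several times as large blasts before they stop cycling and rearrange the α chain. In a dividing cell, helicase and nucleotide synthesis genes are transcribed ahead of and during DNA replication, and the genes for mitotic cyclins, kinases, kinetochore and spindle proteins follow in G2 and mitosis. Many of the latter are regulated through a CCAAT box, bound by NF-Y, and a downstream cell cycle genes homology region (CHR), bound by the DREAM and MuvB complexes. Tox4 is a DNA-binding protein of a nuclear complex with the phosphatase PP1, its targeting subunit Pnuts (Ppp1r10) and Wdr82, which acts on RNA polymerase II.

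The promoters of 5 of these genes are printed to show the elements that recur among them: Top2a, a gene of the rule that encodes DNA topoisomerase II alpha, Cdk1, the kinase that drives entry into mitosis, its partner cyclin Ccnb2, the ubiquitin-conjugating enzyme Ube2c of the anaphase-promoting complex, and the mitotic kinase Plk1. Each is given 5′ to 3′ in the gene's direction, from 250 bases before to 50 after the RefSeq start (GRCm38.p6) (position 0). Capitals mark CCAAT or its reverse complement ATTGG, and the CHR letters, which are TTTGAA with its reverse complement TTCAAA and the palindrome TTCGAA.
Top2a (chr11:99024140-99024439, minus strand): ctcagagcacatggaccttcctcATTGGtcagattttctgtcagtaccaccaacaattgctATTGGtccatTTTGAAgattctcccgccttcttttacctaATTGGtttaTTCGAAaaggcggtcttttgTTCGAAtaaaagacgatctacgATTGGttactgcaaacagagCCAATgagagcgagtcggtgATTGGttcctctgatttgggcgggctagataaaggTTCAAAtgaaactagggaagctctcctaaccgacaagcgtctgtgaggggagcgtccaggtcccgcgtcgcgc
Cdk1 (chr10:69352863-69353162, minus strand): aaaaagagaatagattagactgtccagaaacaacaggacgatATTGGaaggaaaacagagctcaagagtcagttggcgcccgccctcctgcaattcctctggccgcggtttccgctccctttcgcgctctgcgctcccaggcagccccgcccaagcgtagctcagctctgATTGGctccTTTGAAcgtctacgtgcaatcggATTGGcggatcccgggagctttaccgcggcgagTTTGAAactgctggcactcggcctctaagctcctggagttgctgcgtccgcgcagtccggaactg
Ccnb2 (chr9:70421505-70421804, minus strand): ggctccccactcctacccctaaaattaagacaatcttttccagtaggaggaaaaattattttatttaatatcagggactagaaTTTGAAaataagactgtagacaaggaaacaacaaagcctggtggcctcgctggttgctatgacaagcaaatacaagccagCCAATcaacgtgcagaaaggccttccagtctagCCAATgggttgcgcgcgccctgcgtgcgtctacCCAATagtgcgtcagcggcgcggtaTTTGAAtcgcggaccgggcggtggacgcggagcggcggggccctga
Ube2c (chr2:164769679-164769978, plus strand): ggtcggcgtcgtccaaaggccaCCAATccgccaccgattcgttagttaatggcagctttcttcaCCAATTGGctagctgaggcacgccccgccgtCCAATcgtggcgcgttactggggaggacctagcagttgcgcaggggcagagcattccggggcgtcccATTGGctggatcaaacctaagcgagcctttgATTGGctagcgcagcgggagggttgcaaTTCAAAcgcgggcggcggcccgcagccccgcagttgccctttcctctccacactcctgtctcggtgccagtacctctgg
Plk1 (chr7:122159185-122159484, plus strand): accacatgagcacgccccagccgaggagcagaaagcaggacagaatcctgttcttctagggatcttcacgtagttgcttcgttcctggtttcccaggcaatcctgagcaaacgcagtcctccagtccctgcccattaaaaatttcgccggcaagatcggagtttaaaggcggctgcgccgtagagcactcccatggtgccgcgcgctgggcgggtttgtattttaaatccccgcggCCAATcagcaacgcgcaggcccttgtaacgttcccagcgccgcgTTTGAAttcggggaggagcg
These 5 windows were picked with their matches known, and each holds both motifs, but not every gene of these roles does. The window of Ccnb1 has 2 CCAAT and 0 CHR matches, and that of the rule gene Nusap1 has 0 of either. The Top2a window has 6 CCAAT and 4 CHR matches, that of Cdk1 3 and 2, and that of Ccnb2 3 and 2. In Cdk1 a TTTGAA begins 15 bases before the start and in Ccnb2 at position 4 after it, with the nearest CCAAT letters at -48 and -21.

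These letters were frequent in promoters of genes of the same role. Among 138 genes of 5 lists of G2 and mitosis genes, 116 matched a RefSeq promoter entry by symbol or synonym, outside chromosome 18. Of the 116, 66 (56.9%) held a CHR match on either strand (searched as TTTGAA and TTCGAA), against 21.7% of all 27025 genes with an entry. CCAAT was found on either strand in 82 (70.7%), against 41.1% of all genes, and both in 52 (44.8%), against 8.61%. The list of spindle motors and cytokinesis genes had 23 CHR matches in 31 windows (74.2%) and that of the anaphase-promoting complex 6 in 18 (33.3%). Matches can overlap, as CCAAT at -186 and ATTGG at -183 do in Ube2c, and a match describes letters, not a bound site.

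The members had high UMI totals, which a rule on raw UMI sums favours. Their median was 12858 in control 1, 11779 in control 2, 12272 in cKO 1 and 9983 in cKO 2, with cKO 2 below the other 3. Cells of the same gate without cycling RNA (no UMI of the 5 mitosis genes and at most 2 of Hells, Ung, Mcm3, Mcm5, Mcm6 and Pcna, called non-cycling DP cells, 5242 cells) had medians of 3682 to 3843 UMIs. Cells under the mitosis gene limit with at least 6 UMIs of those 6 replication genes (S-phase DP blasts, 591 cells) had medians of 8341 to 9378 UMIs. No cell barcode of a member occurred as a member in a second library, while whole libraries shared 36 to 70 barcodes per pair. At the limit, 15, 17, 30 and 46 otherwise eligible cells had 5 UMIs of the 5 mitosis genes (control 1, control 2, cKO 1, cKO 2), and 10, 17, 25 and 31 had 6.

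The cells were proposed as DP blasts in G2 and early mitosis, and most of them also had RNA of replication genes. Between 72.3% and 80.1% of the members of a library had at least 6 UMIs of the 6 replication genes, the limit used for S-phase blasts. After each cell was thinned at random to 3000 UMIs, 62.9% of members of control 1 had UMIs both of these 6 genes and of 5 late mitotic genes (Ccnb1, Cdc20, Plk1, Aurka and Cenpa), with 64.5% in control 2, 61.8% in cKO 1 and 63.3% in cKO 2. Replication genes without late mitotic genes were found in 21.8% to 26.1% of members, and late mitotic genes without replication genes in 11.1% to 15.3%. At least 1 replication gene UMI was present in 84.7% to 88.7% of members, against 40.9% to 59.0% of 39 to 71 C1q-expressing macrophages per library, a cell type that mostly does not divide, whose median totals before thinning were 4908 to 6212 UMIs. At least 1 late mitotic UMI was present in 73.6% to 78.2% of members and in 28.2% to 36.6% of those macrophages. At least 3 late mitotic UMIs were found in 43.8% to 54.2% of members and in 14.9% to 21.1% of S-phase blasts. At least 1 late mitotic UMI was also found in 38.1% to 51.2% of S-phase blasts. Most members thus carried RNA of both sets, and these counts cannot place a cell in S phase, G2 or mitosis. They do not show that the members are in G2 and early mitosis alone.

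**Figure D1:**
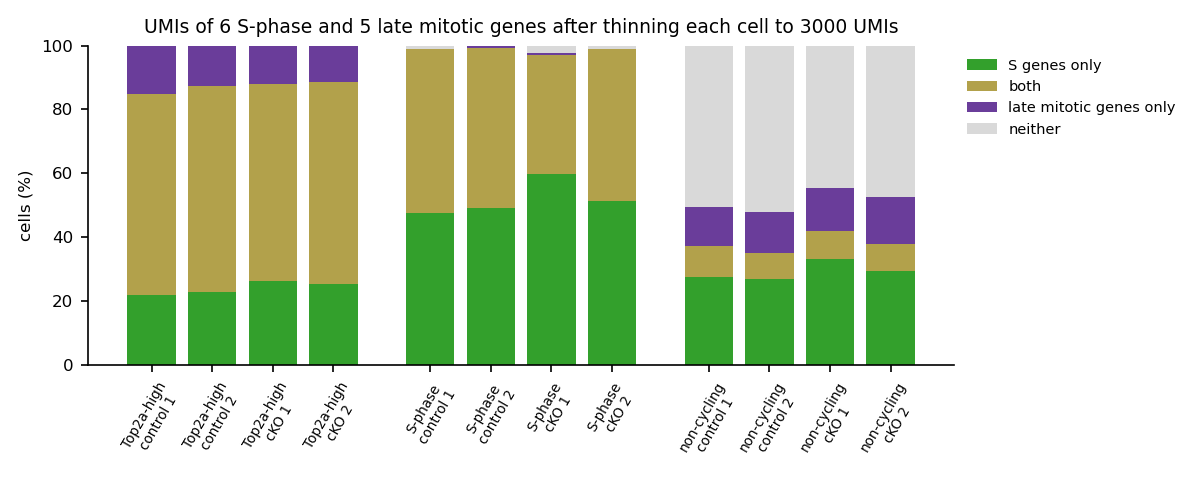
Bars give the percent of cells (y axis) of each library and population with UMIs of 6 replication genes (Hells, Ung, Mcm3, Mcm5, Mcm6, Pcna) only, of 5 late mitotic genes (Ccnb1, Cdc20, Plk1, Aurka, Cenpa) only, of both or of neither, after thinning every cell to 3000 UMIs. In Top2a-high DP blasts the class with both holds 61.8% to 64.5% of cells, and almost none have neither.

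Levels were compared between the populations as a description, since the same cells and genes defined them. Of all 8576 genes at 10 CPM or more in a population, 2097 were higher and 1742 lower in members than in S-phase DP blasts in all 4 libraries (median log2 ratio 0.01), and 2544 were higher and 4823 lower than in non-cycling DP cells (median -0.29). Every one of 34 measured spindle and cytokinesis genes was higher in members than in S-phase DP blasts in all 4 libraries, with a median log2 ratio of 2.60. The same held for 24 of 25 mitotic kinases and cyclins (median 2.43) and 31 of 32 kinetochore and centromere genes (median 1.90). Of 28 condensin, cohesin and mitotic chromatin genes 28 were higher by less (median 0.86), and of 19 genes of the anaphase-promoting complex and mitotic exit 14 were (median 0.62). Outside the rule, genes leading over S-phase blasts were Mxd3, a Max-binding protein of the Myc network (log2 ratio 4.13), Ube2c, Aurkb, a kinase of the chromosomal passenger complex (3.80), Esco2, a cohesin acetyltransferase (3.78), and the motor Kif11 (3.61). Ube2c was at 1218 CPM in control 1, 1166 in control 2, 1037 in cKO 1 and 979 in cKO 2, against 54.9 to 90.1 CPM in S-phase blasts. Mki67, the proliferation antigen Ki67, was at 880, 914, 926 and 1124 CPM, against 135 to 236 CPM in S-phase blasts and 17.8 to 36.8 CPM in non-cycling cells.

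Not all late genes separated the blasts so widely. Ccnb2 was at 380, 317, 290 and 250 CPM in members and already at 173 to 247 CPM in S-phase blasts, a log2 ratio of 0.66. Cenpa, the centromeric histone H3 variant, had a log2 ratio of 0.98. For both genes the members of all 4 libraries were higher than the S-phase cells of the same library. Replication-dependent histone genes, whose values are uncertain for reasons given below, were higher in members for 18 of 18 genes (median 2.43). The linker histone Hist1h1b was at a mean of 808 CPM against 84.8 CPM in S-phase blasts. The histone genes summed to 7770, 5927, 7144 and 5732 CPM in members (control 1, control 2, cKO 1, cKO 2). In S-phase blasts they summed to 1185, 912.7, 1065 and 943.8 CPM. The name S-phase blasts rests on the replication genes of their rule, and their place in the cycle was not tested.

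Replication genes set the members close to S-phase blasts and far from non-cycling cells. Of 41 such genes at 10 CPM or more in a population, 41 were higher than in non-cycling cells in all 4 libraries (median log2 ratio 3.27), while against S-phase blasts 26 were higher and 10 lower (median 0.31). Rrm2, a subunit of ribonucleotide reductase, was higher than in S-phase blasts (log2 ratio 1.39), as was the thymidylate synthase Tyms (1.45). Among the 10 lower genes were the uracil glycosylase Ung (-1.57), the licensing factor Cdc6 (-0.54), the chromatin remodeller Hells (-0.51) and the helicase subunit Mcm3 (-0.51). Ung, Hells and Mcm3 were used to define the S-phase cells, which raises them there, and Cdc6 was not.

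The T cell programme of the members was that of blasts rather than of non-cycling DP cells. Of 38 DP identity and pre-TCR genes, 34 were lower than in non-cycling DP cells in all 4 libraries (median log2 ratio -0.78). The recombinase gene Rag1 was at 410, 384, 318 and 375 CPM against 1134 to 1495 CPM in non-cycling cells (log2 ratio -1.75). Trac, the receptor α constant region, had a log2 ratio of -2.03, and Ptcra, the pre-TCR α chain, was higher (0.96). Of 22 growth and ribosome biogenesis genes, 21 were higher than in non-cycling cells, among them the nucleolar chaperone Npm1 (1.12), nucleolin (Ncl) and Myc (1.38). Against S-phase blasts the DP identity genes had a median log2 ratio of 0.00 and the growth genes one of -0.18.

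**Figure D2:**
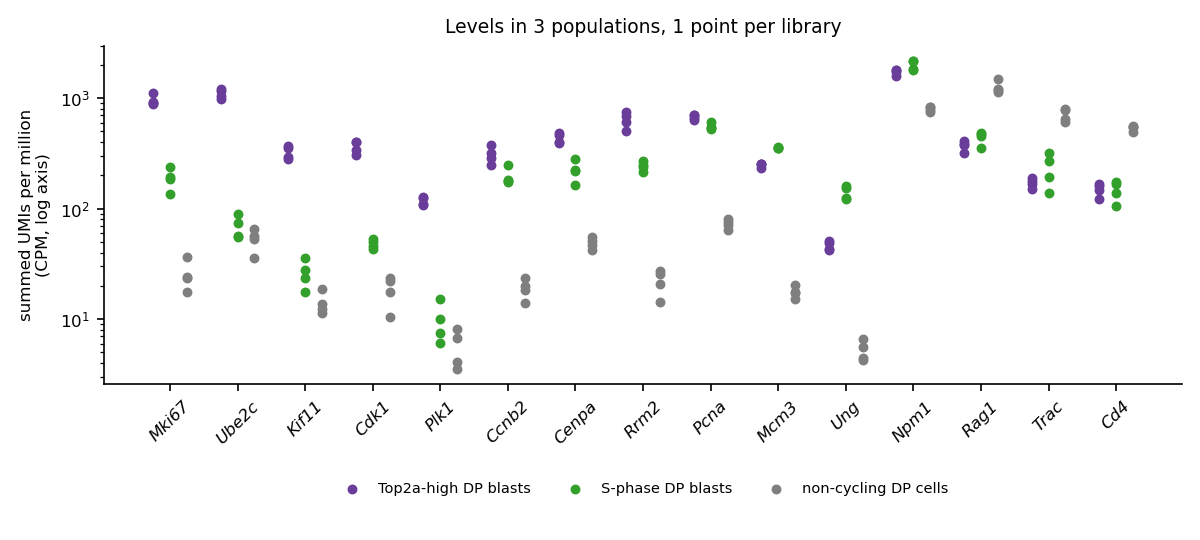
Points give the level of 15 genes in CPM (log axis) in the summed cells of each of the 4 libraries, for Top2a-high DP blasts, S-phase DP blasts and non-cycling DP cells. Mitotic genes such as Ube2c, Kif11, Cdk1 and Plk1 are highest in Top2a-high DP blasts, Ung and Mcm3 are highest in S-phase DP blasts, and Rag1, Trac and Cd4 are highest in non-cycling DP cells.

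The labels of the gate held in part. In 81.3%, 79.5%, 69.7% and 71.0% of members (control 1, control 2, cKO 1, cKO 2) at least 1 UMI of Cd4 and 1 of Cd8a or Cd8b1 were both found. The other cells had UMIs of one coreceptor, which at this depth cannot tell a cell with 1 coreceptor from a missed transcript. The rule thus also admits immature single-positive cells, which have CD8 but neither CD4 nor TCRβ. The study reported a higher frequency of these cells in the cKO, and they were not told apart from DP cells here. Cd4 was at 168, 160, 122 and 149 CPM, Cd8a at 939, 860, 652 and 578 CPM and Cd8b1 at 1033, 1030, 855 and 780 CPM. In each of the 3 genes the cKO libraries were below both controls. These genes are part of the rule, so the values carry no test, and the same holds for Notch3, at 11.3 and 10.5 CPM in the controls and 17.5 and 17.03 CPM in the cKO.

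Cells of other types were few as far as non-T-cell genes show. Macrophage and dendritic cell genes (14 genes) summed to 364 and 244 CPM in control members and to 262 and 217 CPM in cKO members, with Csf1r, Adgre1, Itgax and Flt3 under 2 CPM in every library. Erythroid genes (6 genes) summed to 7.34 and 1276 CPM in the controls and 11.8 and 689 CPM in the cKO. B cell genes (6 genes) summed to 476 and 350 against 350 and 355 CPM, with Cd79a, Ms4a1 and Ebf1 under 2 CPM. Thymic epithelial genes (8 genes) summed to 16.7 to 27.1 CPM, γδ T cell genes (8 genes) to 208 to 269 CPM, early thymocyte genes outside the rule (9 genes) to 64.6 and 54.5 against 87.7 and 108 CPM, most of it from Plac8, and mature single-positive genes (14 genes) to 305 to 401 CPM. A total of 3, 5, 3 and 3 members (control 1, control 2, cKO 1, cKO 2) had at least 20 UMIs of non-T-cell genes. The genes counted were Cd74, H2-Aa, H2-Ab1, Tyrobp, Lyz2, Fcer1g, Irf8, Cd79a, Hba-a1, Hba-a2, Hbb-bs and Hbb-bt, so removing these cells lowers such genes by design. Without these 14 cells the macrophage sum was 214 to 237 CPM and the erythroid sum 7.05 to 11.7 CPM.

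The comparison of the genotypes asks whether the share of these cells among captured cells and their RNA differ with loss of Tox4. A share does not give the number of cells in a thymus. The study reported lower thymic cellularity and a lower number and frequency of DP cells in the cKO. Relative to DN cells, it found fewer cells in most clusters from its second DP blast cluster onward. Members made up 16.4% of DP-gated cells in control 1 (95% Clopper-Pearson interval 15.1 to 17.8), 20.01% in control 2, 24.9% in cKO 1 and 35.2% in cKO 2. The means were 18.2% ± 2.55 (SD, n = 2) and 30.1% ± 7.28 (SD, n = 2), a difference of 11.9 percentage points. The cKO libraries lay above both controls, and with 2 libraries a group a two-sided exact permutation test gave p = 0.333, the smallest it can give. Intervals cover counting error only. Among all cells passing the quality limits, the means were 12.7% ± 1.14 and 18.5% ± 3.43 (SD, n = 2 each).

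The size of this gap depended on the cells counted with the members and on cKO 2, without which it was 6.70 percentage points of DP-gated cells and 3.32 of all cells. Non-cycling cells lie near the limit of 3000 UMIs, and when cells below it were counted in the denominator the difference was 3.87 percentage points of DP-gated cells and 1.31 of all cells. With a limit of 2000 UMIs it was 6.04 points. With at most 5% mitochondrial UMIs the difference was 11.4 points and the libraries overlapped (exact permutation p = 0.667). Among cycling DP-gated cells alone, members and S-phase blasts together, the share of members was 85.4% and 82.9% in the controls and 84.7% and 81.3% in the cKO, a mean difference of -1.14 percentage points (exact permutation p = 0.667, overlapping libraries). It was 0.12 points without control 1 and 0.52 without cKO 2, and -3.14 at the 5% mitochondrial limit, where the libraries did not overlap (exact permutation p = 0.333).

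**Figure D3:**
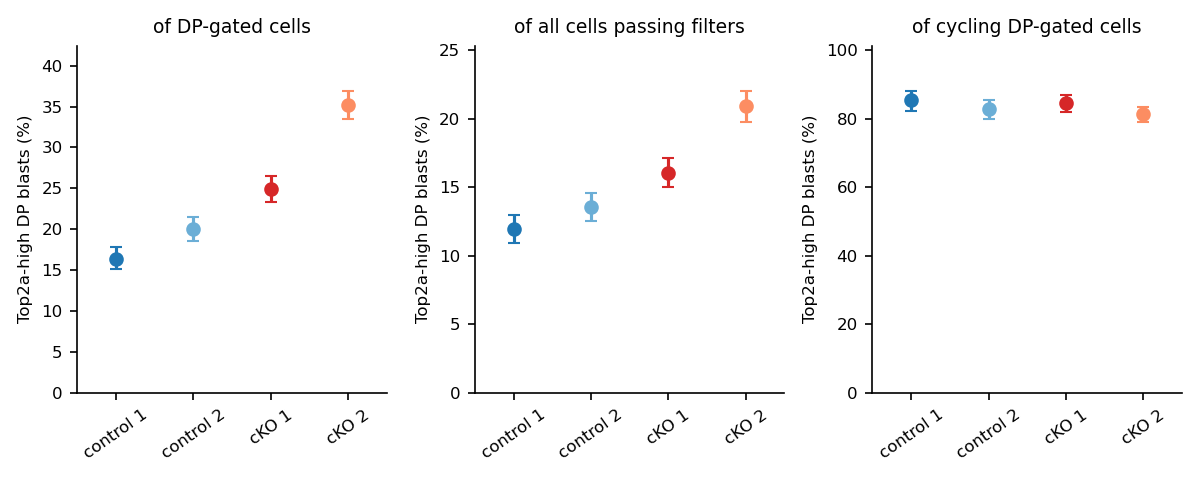
Points give the percent of Top2a-high DP blasts (y axis) among DP-gated cells, among all cells passing the quality limits and among cycling DP-gated cells in each library, with 95% Clopper-Pearson intervals that cover counting error only. The cKO libraries lie above both controls in the left and middle panels and overlap with them in the right panel.

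Within the members, fewer cKO cells had late mitotic RNA and more had replication gene RNA. Thinned cells with at least 3 late mitotic UMIs made up 54.2% and 48.6% of control members and 43.8% and 46.4% of cKO members. Thinned cells with at least 3 replication gene UMIs made up 63.1% ± 0.283 of control members and 66.7% ± 1.39 of cKO members (SD, n = 2 each). In both measures the libraries did not overlap, with a two-sided exact permutation p = 0.333 each, the smallest possible. The summed levels of 42 replication genes, given below, had a median log2 fold change of -0.02 and so did not rise with the second share.

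UMIs of all members were summed per library, to 8033575 (control 1), 9051652 (control 2), 10795892 (cKO 1) and 12921450 (cKO 2), and 11013 genes entered a quasi-likelihood test in edgeR. Of these, 10 (0.0908%) passed an adjusted p of 0.05, 2 lower and 8 higher in the cKO. H1f0, the replacement linker histone H1.0 associated with cells that leave the cycle, fell. Gzma, the protease granzyme A, and Plac8, a gene on the list of early thymocytes, rose. The count rested on few cells. Without the 14 cells with RNA of other cell types, a removal chosen after the data were seen, 54 genes passed (0.492% of 10966). Of these, 25 were higher and 29 lower, and all of the 10 were among them. Without control 1 it was 121 genes and without control 2 177, and the cause was not tested.

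H1f0 (ENSMUSG00000096210, chr15:79028450-79030504, plus strand) was at 89.9 CPM in control 1, 86.5 in control 2, 37.4 in cKO 1 and 45.6 in cKO 2, from 404 to 783 UMIs a library. Both cKO libraries were far below both controls. The log2 fold change was -1.06 (SE 0.13, edgeR adjusted p = 0.00519), and H1f0 passed under all 18 alternatives.

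Gzma (ENSMUSG00000023132, chr13:113093825-113100981, minus strand) was at 179, 156, 294 and 327 CPM in the same order. The groups did not overlap, and the log2 fold change was 0.91 (SE 0.11, edgeR adjusted p = 0.00519). It was also higher in cKO than in control libraries in non-cycling DP cells, at 188 and 145 against 48.8 and 41.6 CPM, and in S-phase blasts, at 478 and 514 against 149 and 261 CPM. Plac8 (ENSMUSG00000029322, chr5:100553725-100572245, minus strand) was at 40.0, 34.4, 62.3 and 82.4 CPM (log2 fold change 0.99, SE 0.14, edgeR adjusted p = 0.0186), again without overlap. In members with under 6 UMIs of the replication genes, a subset chosen after the data were seen, the log2 fold change was 2.24 for Gzma and 2.10 for Plac8.

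The largest of the 8 rises were in genes of low level. Tspoap1, which encodes a binding protein of the mitochondrial translocator protein TSPO, was at 2.12, 4.53, 16.4 and 17.7 CPM (log2 fold change 2.35, SE 0.27, edgeR adjusted p = 0.00519) and passed under all 18 alternatives. The predicted gene Gm41600 was at 1.25, 3.204, 12.7 and 10.3 CPM and the phosphatase gene Ptpn14 at 7.59, 10.6, 19.0 and 20.7 CPM. Khdrbs3, an RNA-binding protein of the STAR family, fell from 3.73 and 4.64 to 0.93 and 0.70 CPM, on 9 to 42 UMIs a library. Gm41600, Khdrbs3, Ptpn14 and Tspoap1 lie outside the rule for named genes, which asks for 20 CPM, and were named after their values were seen. Serf1 (log2 fold change 0.74), mt-Nd4l, a mitochondrially encoded subunit of respiratory complex I (0.77), and Rpl10-ps3 (0.68) complete the 10. Over the 18 alternatives Gzma passed in 17, Plac8 and Gm41600 in 15, mt-Nd4l in 13, Serf1 in 11, Rpl10-ps3 in 10 and Ptpn14 in 8, and Khdrbs3 in 8 of the 16 that tested it. Rpl10-ps3 is a pseudogene of Rpl10, and how reads were shared between them is uncertain. The median mitochondrial share of members was 4.90%, 5.45%, 4.50% and 4.88%, with both cKO libraries below both controls, cKO 2 by a narrow margin.

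**Figure D4:**
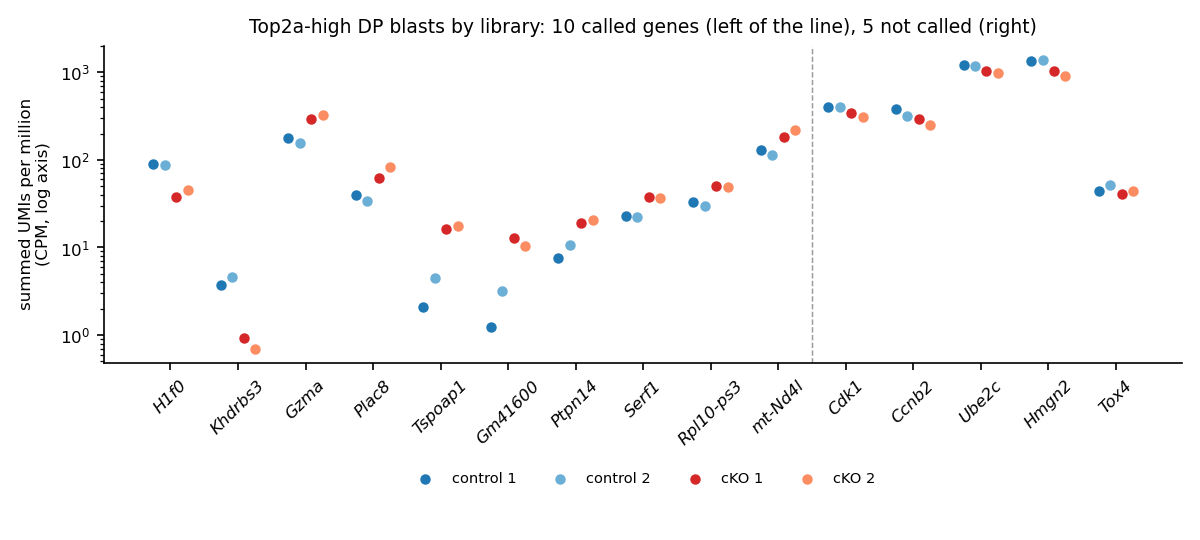
Points give the level in CPM (log axis) of 15 genes in the summed Top2a-high DP blasts of each library, with the 10 genes that passed left of the dashed line and 5 that did not right of it. H1f0 and Khdrbs3 are lower and the other 8 higher in both cKO libraries, while Cdk1, Ccnb2, Ube2c and Hmgn2 are lower in both cKO libraries by less.

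The values of the 5 lists of G2 and mitosis genes lay slightly lower in the cKO. None of the 138 genes passed in this fit, which at 0.0908% of all genes tested says nothing particular about them. The fit leaves replicate numbers out, and the count with them, which differs, is given at the end. Of these genes, 106 had a log2 fold change below 0, with a median of -0.11 against 0.00 for all genes tested. In 67 (48.6%) both cKO libraries were below both controls, and in 6 (4.35%) above. Of all genes tested, 22.9% lay apart below and 17.1% apart above. The range over the 138 genes was -0.47 to 0.22. In counts simulated at these library sizes, with the same assumed spread for every gene, 77% of changes of 0.5 on the log2 scale were recovered. That spread was not estimated from these libraries, so the 77% need not hold for the real counts. In the real counts Eno1 (-0.49, edgeR adjusted p = 0.1955), Gtf2h4 (-0.56, 0.114) and Dpm1 (-0.62, 0.0615) did not pass. Changes under 0.5, which include all in these lists, were not simulated.

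List members outside the fixed set of 27 genes given under the processing steps were named after their values were seen. Mitotic kinases and cyclins had a median of -0.16, and 22 of 25 were below 0. Cdk1 (ENSMUSG00000019942, chr10:69335146-69352938, minus strand), whose promoter is printed above, was at 400 and 398 CPM in the controls and 342 and 308 CPM in the cKO (log2 fold change -0.27, SE 0.10, edgeR adjusted p = 0.399). Both cKO libraries were below both controls. Ccnb2 was at 380 and 317 against 290 and 250 CPM (-0.35, adjusted p = 0.358), Ccna2, the cyclin of S phase and G2, at 375 and 368 against 334 and 305 CPM (-0.20), and Ccnb1 at 281 and 259 against 243 and 223 CPM (-0.19). These 3 did not overlap either. Plk1 (-0.18), Aurkb (-0.13), Bub1, a spindle checkpoint kinase (-0.13), and Aurka, a kinase of the centrosome (-0.11), also lay apart below. Foxm1, a transcription factor of G2 genes, overlapped, at 60.4 and 58.6 against 54.0 and 59.7 CPM.

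Genes of the anaphase-promoting complex and mitotic exit had a median of -0.17, with 15 of 19 below 0. Ube2c was at 1218 and 1166 against 1037 and 979 CPM (-0.22, edgeR adjusted p = 0.401) and did not overlap. Cdc20, an activator of the complex, was at 329 and 261 against 270 and 216 CPM (-0.26) and overlapped. Spindle motors and cytokinesis genes had a median of -0.11. The kinesin Kif22 was at 165 and 171 against 139 and 125 CPM (-0.33, adjusted p = 0.391), whereas Kif11 (-0.05) and the spindle assembly factor Tpx2 (0.01) overlapped.

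Kinetochore and centromere genes had a median of -0.08, with Cenpa at 462 and 480 against 401 and 391 CPM (-0.23, edgeR adjusted p = 0.453). Birc5, survivin, was at 706 and 721 against 659 and 623 CPM (-0.13). The large kinetochore proteins Cenpe (-0.07) and Cenpf (0.09) overlapped between the groups. Condensin, cohesin and mitotic chromatin genes had a median of -0.03 and held the widest range of the 5 lists. Hmgn2, a nucleosome-binding protein, was at 1337 and 1383 against 1030 and 908 CPM (-0.47, SE 0.09, edgeR adjusted p = 0.0624), and passed at an adjusted p of 0.0241 without the cells with RNA of other cell types. Mki67 went the other way, at 880 and 914 against 926 and 1124 CPM (0.21, adjusted p = 0.525).

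The smaller share of cKO members with at least 3 late mitotic UMIs given above was counted from Ccnb1, Cdc20, Plk1, Aurka and Cenpa, genes of these lists, so the lower share and the lower levels are not separate observations. Among the 136 to 265 members per library with under 6 UMIs of the 6 replication genes, the median over the 138 genes was -0.11 and that of kinases and cyclins -0.15. With equal numbers of cells and UMIs in each library, the median was -0.11.

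**Figure D5:**
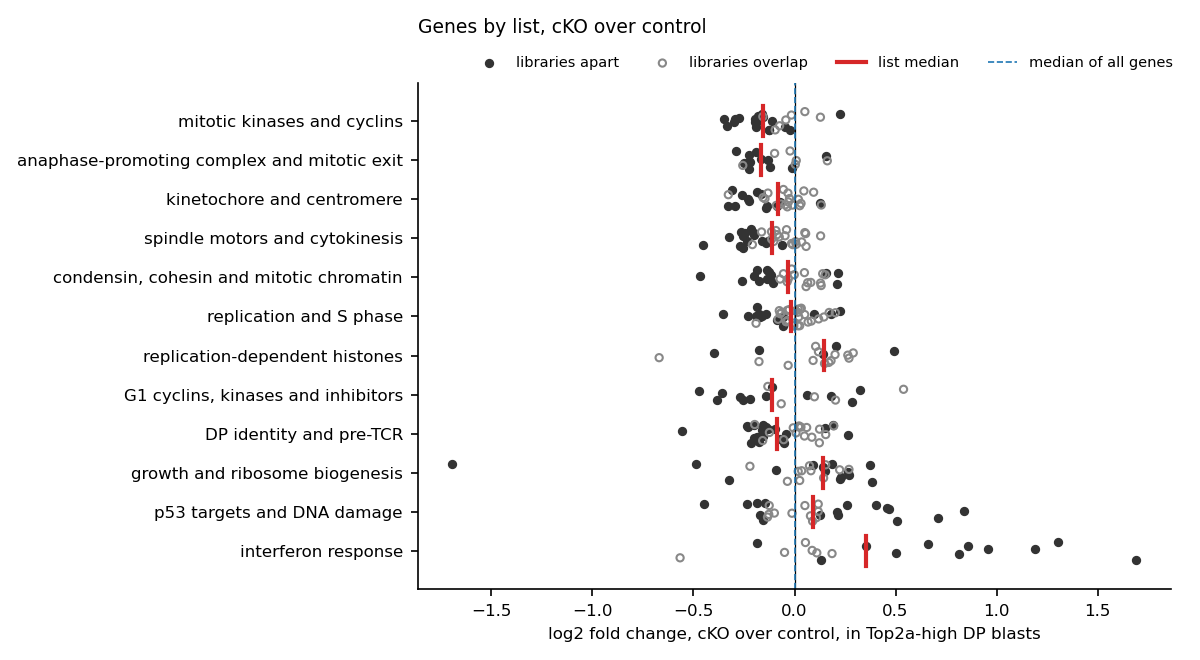
Each point is a gene of 1 of 12 lists, placed by its log2 fold change of cKO over control in Top2a-high DP blasts (x axis), filled where both libraries of a group lay beyond both of the other. Red bars mark the list medians, from -0.17 (anaphase-promoting complex and mitotic exit) to 0.35 (interferon response), and the dashed line marks the median of all genes, 0.00.

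Replication genes were level in the median, at -0.02 over 42 genes, 24 of them below 0. Of these genes 11 (26.2%) lay apart below and 3 (7.14%) apart above, against 22.9% and 17.1% of all genes tested. Rrm2, with -0.35, was at 696 and 748 against 605 and 509 CPM (edgeR adjusted p = 0.285) and lay apart, and Mcm2, with 0.00, at 153 and 146 against 147 and 148 CPM. Replication-dependent histones had a median of 0.15, 13 of 18 above 0, and the linker histone Hist1h1b was at 769 and 778 against 793 and 890 CPM. These genes mostly lack poly(A) tails, which this chemistry reads, and many are near-identical copies, so their values are uncertain. H1f0 is polyadenylated and is not among them.

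Genes of cell cycle control in G1 had a median of -0.11 over 17 genes, with 8 (47.1%) apart below and 4 (23.5%) apart above, against 22.9% and 17.1% of all genes tested. Ccnd3, the cyclin D of DP blasts, was at 1170 and 1185 against 938 and 869 CPM (-0.36, edgeR adjusted p = 0.137). The inhibitors Cdkn2d (-0.38) and Cdkn2c (-0.47) also lay apart below, while Cdkn1a, which encodes p21, was at 5.10 and 5.19 against 7.04 and 9.52 CPM (0.71, adjusted p = 0.381). The 27 tested p53 target and DNA damage genes had a median of 0.09, with 10 (37.0%) apart above and 6 (22.2%) apart below, against 17.1% and 22.9% of all genes tested.

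DP identity and pre-TCR genes had a median of -0.09 over 38 genes, with 19 of the 38 apart below and 3 (7.89%) apart above, against 22.9% and 17.1% of all genes tested. Rag1 was at 410 and 384 against 318 and 375 CPM (-0.17, edgeR adjusted p = 0.653), apart by a narrow margin, and Ptcra at 99.2 and 71.2 against 92.6 and 57.5 CPM (-0.16), overlapping. Growth and ribosome biogenesis genes had a median of 0.14 over 25 genes, with 10 (40.0%) apart above and 4 of the 25 apart below, against 17.1% and 22.9% of all genes tested. Among those above was the nucleolar protein Nolc1 at 104 and 102 against 129 and 135 CPM (0.38, adjusted p = 0.296). Mycn was at 3.73 and 5.08 against 1.019 and 1.63 CPM (-1.70, adjusted p = 0.114), and passed without the cells with RNA of other cell types (adjusted p = 0.0396).

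Interferon response genes had the highest list median, 0.35 over 17 genes, with 10 (58.8%) apart above and 1 (5.88%) apart below, against 17.1% and 22.9% of all genes tested. Bst2, tetherin, was at 84.0 and 67.1 against 111 and 99.6 CPM (0.50, edgeR adjusted p = 0.22) and Usp18, a negative regulator of interferon signalling, at 2.61 and 2.10 against 5.56 and 5.88 CPM (1.30, adjusted p = 0.122). Usp18 passed without the cells with RNA of other cell types (adjusted p = 0.039). Several of these genes, Ifit1, Isg15 and Rtp4 among them, were also lower in control 2 than in control 1.

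Genes of the complex that Tox4 joins did not pass. Ppp1r10 was at 46.2 and 49.3 CPM in the controls and 54.3 and 63.0 CPM in the cKO (0.32, edgeR adjusted p = 0.413), apart above. Wdr82 overlapped, and the PP1 catalytic subunits Ppp1ca (-0.06), Ppp1cb (-0.11) and Ppp1cc (-0.07) lay apart below. The list of 22 proliferation genes of the study, which its methods take from a cited source, had a median of -0.09 over 21 tested genes, 10 (47.6%) apart below and 3 (14.3%) apart above, against 22.9% and 17.1% of all genes tested.

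A test of whether the cKO effect differed between members and S-phase DP blasts named 13 of 10899 genes (0.119%), all with a log2 difference above 0 (members minus S-phase blasts). They were mostly genes of antigen-presenting cells (Cd74, H2-Aa, H2-Ab1, H2-Eb1, Cst3, Fcer1g, Ifi30, Irf8, Ly86, S100a6 and Tyrobp), with Malat1 and Tmsb4x. In S-phase blasts, macrophage and dendritic cell genes summed to 1154 and 846 CPM in the controls and 272 and 212 CPM in the cKO. Without 2, 2, 1 and 1 S-phase cells and the 14 members with RNA of other cell types, the sums were 212 to 249 CPM and no gene passed in edgeR, with 642 at an unadjusted p under 0.05. Cd74, H2-Aa, H2-Ab1, Tyrobp, Fcer1g and Irf8 are among the genes counted to pick these cells. Their lost calls therefore follow in part from the choice of cells. The log2 difference then went from 3.17 to 0.51 for Cd74, from 5.50 to 1.61 for Tyrobp, from 3.86 to 1.62 for Fcer1g and from 0.33 to 0.32 for Malat1. It changed sign for 5 of the 13 genes, from 2.84 to -1.11 for H2-Aa, 2.78 to -0.73 for H2-Eb1, 3.04 to -0.45 for H2-Ab1, 2.17 to -0.18 for Ifi30 and 1.32 to -0.13 for Cst3. The count without 1 library was 69 (control 1), 60 (control 2), 42 (cKO 1) and 31 (cKO 2).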

How the data were processed

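Thymocytes of 4 mice were profiled with 10x Genomics 3′ v3 libraries. The authors deposited unnormalized UMI counts for every gene in each called cell. The submitters' processing notes name cellranger 6.1.1 and mm10. Members, gene lists and comparisons were chosen with earlier results of these data known. Cells are not replicates, so counts were summed per library and tested with edgeR 4.0.16 (R 4.3.3; quasi-likelihood F test, TMM factors, filterByExpr, genotype as the term, Benjamini-Hochberg adjustment over tested genes, threshold 0.05). The 18 genes of the rule stayed in library sizes and out of tests. SEs were derived from the log2 fold change and its F statistic. The interaction fit blocked on library. The test was checked on simulated data with 200 changed genes and the same assumed spread for every gene, not one estimated from these libraries. In members, changes of 0.5 and 1 (log2) were recovered in 77% and 100%, in the interaction in 6% and 76%. Log2 ratios between populations used a pseudocount of 1 CPM. Scrublet (scanpy 1.11.5, expected rate 8%) called no doublet in any library, so it did not work at its own threshold, and the 5% highest scores were removed as an alternative. Named genes were a fixed set of 27 (Tox4, Ppp1r10, Wdr82, Ppp1ca, Ppp1cb, Ppp1cc, Cdk1, Ccnb1, Ccnb2, Ccna2, Plk1, Aurka, Aurkb, Bub1, Cdc20, Ube2c, Birc5, Cenpa, Cenpe, Cenpf, Kif11, Tpx2, Mki67, Foxm1, Cdkn1a, Ptcra and Rag1), the 8 called per direction with the largest change at 20 CPM or more without overlap, and called list members. Lists were described by counts and medians, beside all genes. Positions are from GENCODE M21. Mx1 had no row in the files. Some genes are not reported here.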

Additional observations from a re-analysis of the deposited data

Results flagged for a closer look

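The cKO effect differed between Top2a-high DP blasts and S-phase DP blasts for 13 genes (edgeR interaction test, adjusted p under 0.05), which is a difference between groups under the same contrast. The largest by significance was H2-Eb1, with a log2 difference of 2.78 (adjusted p = 0.000166), and it was -0.73 after removal of the cells with RNA of other cell types. Cd74, the invariant chain of MHC class II, was at 701 and 602 CPM in control S-phase blasts and 35.5 and 24.1 CPM in cKO S-phase blasts, and at 106, 27.7, 26.5 and 23.4 CPM in members (control 1, control 2, cKO 1, cKO 2). After removal of the cells with at least 20 UMIs of non-T-cell genes no gene remained past the threshold. Cd74, H2-Aa, H2-Ab1, Tyrobp, Fcer1g and Irf8 are themselves among the genes counted for this removal, which lowers them by design. The log2 difference of Malat1 was 0.33 before and 0.32 after and that of Cd74 3.17 before and 0.51 after. Groups of 2 libraries were too small to examine for single libraries far from the rest.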

How the results depend on the processing

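In Top2a-high DP blasts the 10 genes became 27 with DESeq2, 216 with no filter on low counts, 5 with a mitochondrial limit of 5%, 3 without the highest Scrublet scores, 97 without the highest UMI totals and 13 to 177 when 1 library was left out. Alternatives chosen after seeing the data gave 32 in members with under 6 replication gene UMIs, 5 where Cd4 and Cd8 UMIs were both found and 54 without cells with RNA of other types. The difference between members and S-phase blasts (13 genes) became 4 with DESeq2, 67 with no filter, 4 and 22 at mitosis gene limits of 4 and 9, 5 at the mitochondrial limit, 6 without the highest UMI totals, 1 with equal cells and UMIs, 31 to 69 with 1 library left out and 0 without cells with RNA of other types. The share among DP-gated cells moved from 11.9 points to 6.04 (limit of 2000 UMIs) and 3.87 (no limit in the denominator), and that among quality cells from 5.74 to 1.31 (no limit). With 1 library left out these ranged from 6.70 to 17 and from 3.32 to 8.16. The share among cycling DP-gated cells ranged from -2.80 to 0.52 with 1 library left out. The cause of these moves was not tested.

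Replicate numbers are shared by the genotypes, and the study analysed 2 pairs of mice, but no label ties a number to a pair. Deviations of same-numbered libraries from their group means correlated with r = 0.408 over 11026 genes and r = 0.672 over 5644 genes of at least 20 CPM, from 2 pairs only. With the replicate block 646 of 11013 genes tested passed, 317 higher and 329 lower. Of the 138 G2 and mitosis genes, 1 passed as higher and 19 as lower. The share lower was thus larger in these lists than among all genes tested, and the share higher was smaller. Newly among the 646 were 8 of the fixed genes (Cdk1, Ccnb2, Cdc20, Ube2c, Cenpa, Mki67, Cdkn1a and Ppp1r10). For the difference from S-phase blasts 12 of 10899 genes passed.

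Of 663 values for 37 named genes, 592 kept direction and side of the threshold, 45 lost the threshold, 8 gained it (all under the block) and 18 changed sign, all in genes that did not pass. Values of opposite sign were -0.028 for Wdr82 (mitochondrial limit), 0.0231 for Ppp1cb, 0.157 for Foxm1 and -0.01 for Tpx2 (under 6 replication gene UMIs), -0.0743 for Cenpf and -0.0862 for Tpx2 (highest UMI totals removed), and for Tpx2 -0.0147 (mitosis gene limit of 4) and -0.0728 (equal cells and UMIs). With 1 library left out the log2 fold changes ranged from -0.118 to 0.163 for Wdr82, -0.138 to 0.00762 for Cenpe, -0.0178 to 0.201 for Cenpf, -0.223 to 0.154 for Kif11, -0.133 to 0.164 for Tpx2, -0.109 to 0.0207 for Foxm1 and -0.547 to 0.155 for Ptcra.

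With 2 libraries a group, no exact test of a share can pass 0.05, and in the interaction simulated at an assumed spread 6% of changes of 0.5 were recovered.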
